A study of Mus musculus with 45 samples.

Results

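The endothelial genes of the liver were followed through the livers of mice given TCDD (2,3,7,8-tetrachlorodibenzo-p-dioxin), a dioxin and ligand of the aryl hydrocarbon receptor (AhR). The 10 genes are *Pecam1*, *Vwf*, *Kdr*, *Stab1*, *Stab2*, *Lyve1*, *Eng*, *Acvrl1*, *Cav1* and *Cav2*, of 39179 genes in the count tables. They were chosen by name, as known markers of sinusoidal and general endothelium, receptors of bone morphogenetic proteins (BMPs) and caveolins, by a rule that uses no measured value, although earlier results of these data were known when the list was made. All 10 were among the 17464 genes tested, those with more than 4 reads in at least 1 of the 45 livers.

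Female C57BL/6 mice in 9 groups of 5 received sesame oil, the vehicle, or TCDD at 1 of 8 doses (0.01, 0.03 and 0.1 µg/kg, 0.3 and 1 µg/kg, and 3, 10 and 30 µg/kg) by gavage every 4 days for 28 days. By the study's methods dosing began on postnatal day 28, and groups were assigned at random. The sample labels also describe the mice as ovariectomized and the gavage as daily, neither of which the methods mention, so the ovarian status shared by all 9 groups is uncertain. Whole liver was sequenced by RNA-Seq, as single reads of 50 bases, and each library is 1 mouse.

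Sinusoidal endothelial cells line the capillaries of the liver. They are fenestrated, lack an ordinary basement membrane and clear waste molecules from the blood through scavenger receptors such as stabilin-1 and stabilin-2. The vessel wall also takes part in the vascular endothelial growth factor (VEGF) pathway, in which VEGF-A from hepatocytes and other cells binds VEGF receptor-2, and in the BMP9 pathway, in which BMP9 and BMP10 bind the receptor ALK1 with its co-receptor endoglin. Caveolins coat caveolae, small pockets of the plasma membrane that are abundant in the endothelium of larger vessels and sparse in sinusoids.

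Reads on genes ranged from 11767284 to 56509899 per liver. On the 10 genes the reads per liver ranged from 11 (*Cav1*) to 2377 (*Kdr*), and no liver lacked reads of any of them. Levels are given as CPM, the read count scaled to a common library size, after TMM scaling, a correction for library composition, as values of single livers or as mean ± SD with n = 5. *Cyp1a1*, the classical AhR target, lay between 1.34 and 16.6 CPM in the vehicle livers and between 6020 and 9064 CPM at 30 µg/kg. Replicates 2 and 5 of the 0.01 µg/kg group stood apart: replicate 2 held 49 reads of *Xist*, the transcript of the inactive X chromosome, against at least 18603 in every other library, and replicate 5 held 69.7 CPM of *Cyp1a1* and 144 CPM of the macrophage gene *Marco*, against at most 4.54 and 4.01 in the rest of its group. Counts of called genes among the 10 and in the marker lists that rest on a fit with these livers are given again without them where they change. Of all genes, 5309 of 17335 tested were called at 30 µg/kg without them, against 5167 of 17464 with them.

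Promoter sequences of 6 of the 10 genes were found in RefSeq (GRCm38.p6), namely *Kdr*, *Eng*, *Cav1*, *Cav2*, *Stab1* and *Stab2*. *Pecam1*, *Vwf*, *Lyve1* and *Acvrl1* had no entry. The upstream bases of 4 genes called at 30 µg/kg are printed because these genes rose together at this dose. Each run is 5′ to 3′ on the gene's own strand, ends at the annotated start (3 bases before it in *Kdr*) and holds no annotated exon. Capitals mark GCGTG, the core of the AhR response element, on either strand. The *Kdr* run is chr5:75978459-75978705 on the minus strand, and those of *Eng* (chr2:32646345-32646594), *Cav1* (chr6:17306085-17306334) and *Cav2* (chr6:17280935-17281184) are on the plus strand.
Kdr: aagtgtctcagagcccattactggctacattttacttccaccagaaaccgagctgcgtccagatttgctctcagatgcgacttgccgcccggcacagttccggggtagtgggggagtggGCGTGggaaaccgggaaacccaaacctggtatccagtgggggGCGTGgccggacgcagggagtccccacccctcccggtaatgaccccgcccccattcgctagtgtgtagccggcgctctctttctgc
Eng: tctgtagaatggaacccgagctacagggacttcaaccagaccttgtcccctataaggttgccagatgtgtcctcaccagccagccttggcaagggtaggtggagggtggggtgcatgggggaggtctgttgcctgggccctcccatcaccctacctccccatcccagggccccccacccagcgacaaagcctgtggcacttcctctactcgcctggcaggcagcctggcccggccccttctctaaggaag
Cav1: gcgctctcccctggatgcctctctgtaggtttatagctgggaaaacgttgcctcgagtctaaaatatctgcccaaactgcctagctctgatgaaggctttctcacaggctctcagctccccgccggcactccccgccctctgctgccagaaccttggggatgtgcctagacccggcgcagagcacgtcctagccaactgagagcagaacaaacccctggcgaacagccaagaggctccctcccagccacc
Cav2: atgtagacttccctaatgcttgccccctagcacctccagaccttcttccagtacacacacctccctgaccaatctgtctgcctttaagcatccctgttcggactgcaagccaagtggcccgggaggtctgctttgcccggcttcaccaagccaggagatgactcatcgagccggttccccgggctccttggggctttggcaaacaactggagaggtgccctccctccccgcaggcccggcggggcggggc

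The GCGTG core was found at 2 places in the *Kdr* promoter, beginning at -131 and -89 relative to the start, and in none of the other windows. *Cav1* has a second RefSeq window, so 7 windows of 250 upstream bases were searched on both strands, and 1 of the 7 held the core. Among all 32851 RefSeq promoter windows, 28.2% held it. GGGCGG, the core of the GC box bound by Sp1-type factors, was in 3 of the 7 windows (*Kdr*, *Cav1* and *Cav2*) and in 32.7% of all windows, and no match of it overlapped a GCGTG. A match of letters is a description of the window and not a binding site.

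Differences from the vehicle were tested with edgeR's quasi-likelihood test in 1 fit over the 45 livers, with Benjamini-Hochberg adjustment over all 17464 genes within each dose, and a gene was called at an adjusted p under 0.05. At 30 µg/kg 7 of the 10 genes rose, namely *Pecam1*, *Vwf*, *Kdr*, *Eng*, *Acvrl1*, *Cav1* and *Cav2*, and none fell. Of all genes tested, 29.6% were called at this dose and 15.5% were called higher. The rises lay between 0.54 (*Eng*) and 1.24 (*Vwf*) on the log2 scale. *Stab1*, *Stab2* and *Lyve1*, which encode sinusoidal receptors for waste molecules and hyaluronan, were not called. Over the 10 genes the median log2 fold change was 0.74, against 0.019 over all genes tested.

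**Figure D1:**
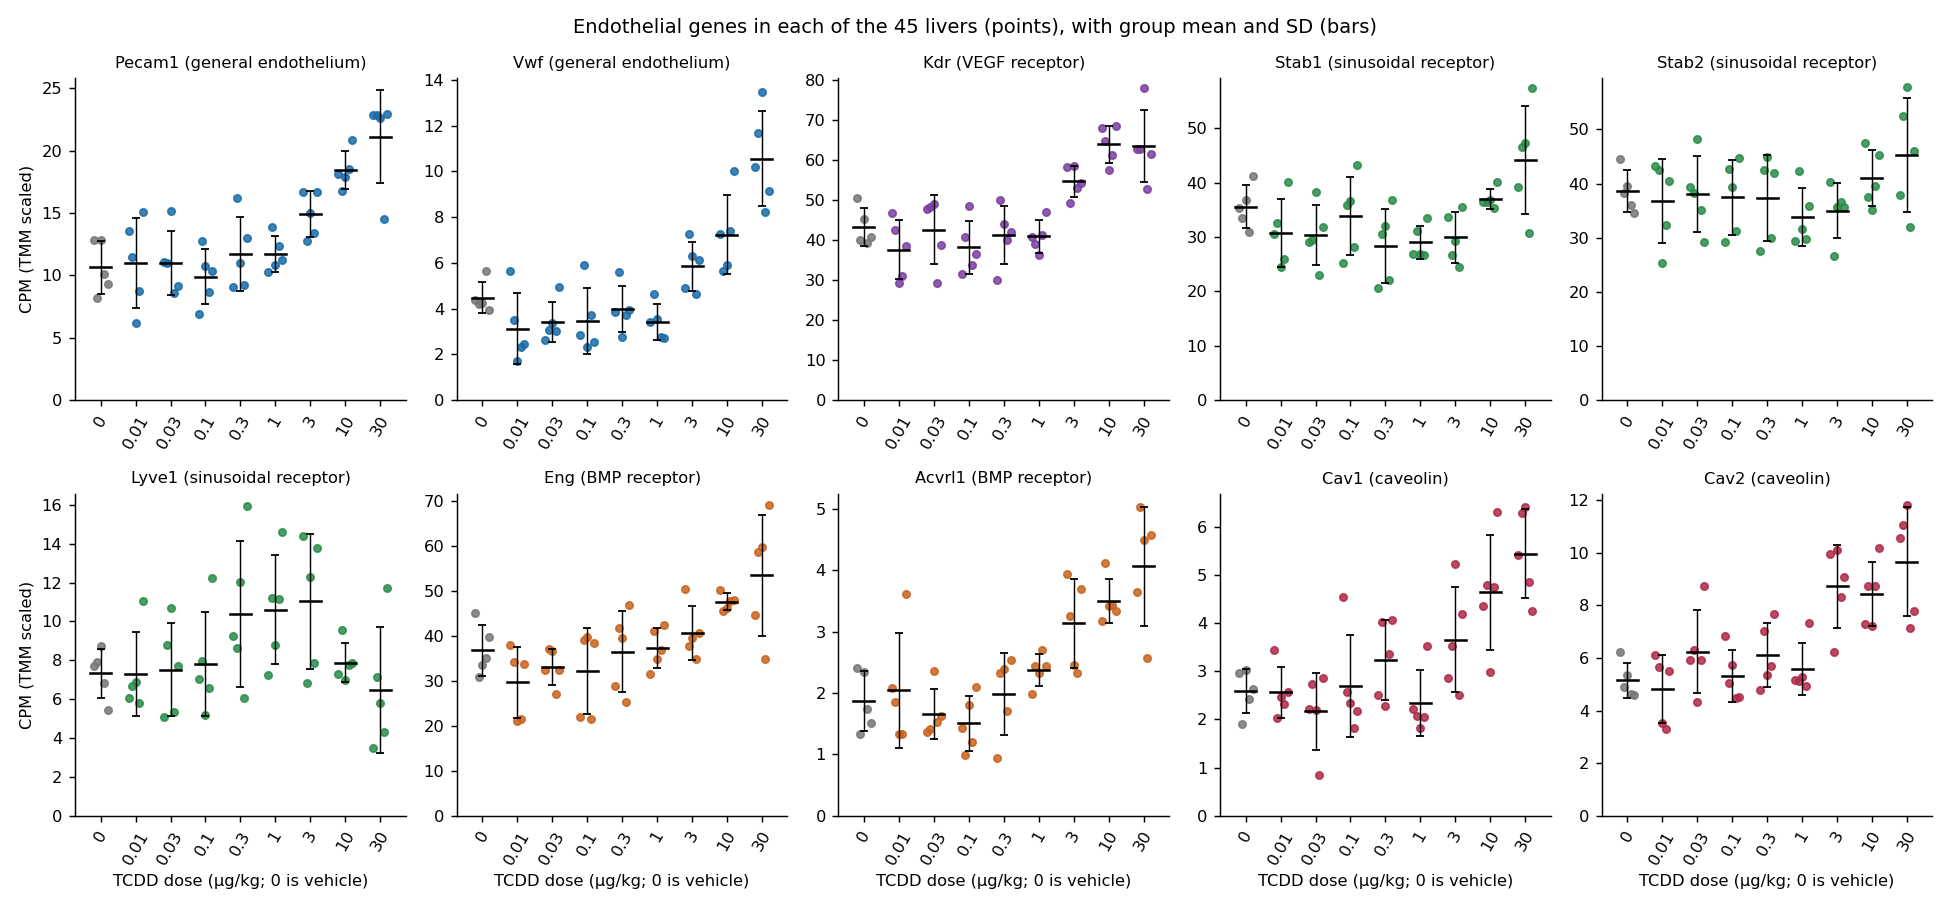
Each panel plots 1 gene in CPM (vertical axis, linear from 0) against TCDD dose (horizontal axis, µg/kg), with 1 point per liver and bars for the group mean and SD (n = 5). The 30 µg/kg livers of *Vwf* (8.25 to 13.5 CPM) sit above every vehicle liver (3.94 to 5.63 CPM), whereas those of *Stab2* (32 to 57.8 CPM) surround the vehicle livers (34.6 to 44.5 CPM).

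The 2 general endothelial genes rose at 10 and 30 µg/kg. *Pecam1* (ENSMUSG00000020717, chr11:106654217-106750628) encodes CD31, an adhesion molecule of endothelial junctions that leukocytes and platelets also carry. The vehicle livers held 12.9, 8.20, 12.8, 10.1 and 9.30 CPM and the 30 µg/kg livers 22.9, 22.8, 22.6, 14.5 and 22.9 CPM. The groups did not overlap, and 4 of the 5 treated livers lay close together while replicate 4 was lower. At 30 µg/kg *Pecam1* had a log2 fold change of 0.99 (SE 0.18, adjusted p = 5.23e-05). The change was 0.79 at 10 µg/kg (SE 0.18, adjusted p = 0.00181), where the livers ranged from 16.8 to 20.9 CPM and again stood above every vehicle liver. At 3 µg/kg the estimate was 0.49 and did not pass (adjusted p = 0.100).

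*Vwf* (ENSMUSG00000001930, chr6:125546774-125686679) encodes von Willebrand factor, the multimeric blood protein that tethers platelets and carries factor VIII, stored by endothelial cells of larger vessels and by megakaryocytes. Its vehicle livers held 4.39, 4.20, 4.25, 5.63 and 3.94 CPM, and its 30 µg/kg livers held 10.2, 11.7, 13.5, 8.25 and 9.14 CPM. Every liver at 30 µg/kg was above every vehicle liver, and the log2 fold change of 1.24 (SE 0.24, adjusted p = 9.04e-05) was the largest estimate among the 10 genes. At 10 µg/kg, with livers at 5.64 to 10.0 CPM, *Vwf* was also called (0.70, SE 0.24, adjusted p = 0.0390), but this call is the least secure of that dose. It was lost when any of 7 of the 10 livers compared was left out, namely vehicle replicates 1, 2, 3 and 5 and 10 µg/kg replicates 1, 4 and 5, with adjusted p of up to 0.144. From 0.01 to 1 µg/kg the estimates were all below 0, from -0.50 to -0.17, and none was called.

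*Kdr* (ENSMUSG00000062960, chr5:75932827-75978458) encodes VEGF receptor-2, the main signalling receptor for VEGF-A. It was read at 50.6, 39.9, 45.2, 39.4 and 40.6 CPM in the vehicle livers and at 62.7, 62.7, 77.9, 52.8 and 61.6 CPM at 30 µg/kg. Here too the groups were separate, although by a narrow gap between vehicle replicate 1 and treated replicate 4. *Kdr* had already reached this level at 10 µg/kg, at 63.9 ± 4.65 CPM against 63.5 ± 9.04 CPM at 30 µg/kg and 43.1 ± 4.76 CPM in the vehicle group. The log2 fold changes were 0.57 (SE 0.13, adjusted p = 0.00198) and 0.56 (SE 0.13, adjusted p = 0.00115). At 3 µg/kg (49.2 to 58.5 CPM) only replicate 2 lay within the vehicle range, and the estimate of 0.34 was not called (adjusted p = 0.112).

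The sinusoidal receptors among the 10 genes, *Stab1*, *Stab2* and *Lyve1*, were not called against vehicle at any single dose. This does not extend to other sinusoidal genes. Of 14 further ones, described below, 10 rose and 1 fell at 30 µg/kg. *Stab1* (ENSMUSG00000042286, chr14:31139013-31168641) encodes stabilin-1, a scavenger receptor found on sinusoidal endothelium and on some macrophages. Its levels were 35.4, 33.6, 36.9, 30.9 and 41.3 CPM in the vehicle livers and 39.2, 46.6, 47.4, 30.7 and 57.4 CPM at 30 µg/kg. The groups overlapped, since treated replicate 4 lay below every vehicle liver and 3 treated livers lay above them all. The log2 fold change was 0.31 (95% confidence interval -0.0031 to 0.62, adjusted p = 0.131), and without treated replicate 4 it was 0.40 and was called (adjusted p = 0.0426). From 0.3 to 3 µg/kg the estimates were below 0, between -0.32 and -0.25, and were not called.

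*Stab2* (ENSMUSG00000035459, chr10:86841198-87008025) encodes stabilin-2, the main hyaluronan clearance receptor of sinusoidal endothelium. The vehicle livers held 44.5, 38.2, 39.6, 36 and 34.6 CPM and the 30 µg/kg livers 37.8, 52.5, 57.8, 32 and 46.1 CPM, with values of treated livers on both sides of the vehicle range. Its log2 fold change at 30 µg/kg was 0.23 (95% confidence interval -0.091 to 0.55, adjusted p = 0.293). The interval holds 0 and also holds the estimate of *Eng* at this dose. When livers were scaled by library size alone, both stabilins were called at 30 µg/kg (*Stab1* 0.53, adjusted p = 0.0106, and *Stab2* 0.45, adjusted p = 0.0384), but that scaling also moved the median log2 fold change of all genes from 0.019 to 0.23.

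*Lyve1* (ENSMUSG00000030787, chr7:110850607-110863239) encodes a hyaluronan receptor of lymphatic and sinusoidal endothelium that some macrophages also express. Its highest group means were 10.4 ± 3.75 CPM (0.3 µg/kg), 10.6 ± 2.81 CPM (1 µg/kg) and 11.0 ± 3.47 CPM (3 µg/kg), against 7.32 ± 1.25 CPM in the vehicle group and 6.48 ± 3.24 CPM at 30 µg/kg. The 30 µg/kg livers held 3.47, 7.16, 5.80, 4.29 and 11.7 CPM and the vehicle livers 7.71, 7.89, 8.75, 6.81 and 5.46 CPM. The treated livers therefore spread from below to above the vehicle range. None of the differences was called, nor was the test over all doses (edgeR, adjusted p = 0.112). The estimate at 3 µg/kg was 0.59 (95% confidence interval 0.047 to 1.13, adjusted p = 0.193) and that at 30 µg/kg was -0.20 (-0.75 to 0.36, adjusted p = 0.637).

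Both BMP receptor genes rose at 30 µg/kg. *Eng* (ENSMUSG00000026814, chr2:32646595-32682669) encodes endoglin, the co-receptor for BMP9 and BMP10. Its vehicle livers held 45.1, 30.8, 33.4, 35.0 and 39.7 CPM and its 30 µg/kg livers 44.7, 58.7, 59.7, 34.9 and 69.1 CPM. Replicates 1 and 4 at 30 µg/kg lay within the vehicle range and the other 3 lay above it. At 30 µg/kg *Eng* was called with a log2 fold change of 0.54 (SE 0.18, adjusted p = 0.0205), and the call was lost without vehicle replicate 2 or without treated replicates 3 or 5, each left out in turn (adjusted p of up to 0.0976). At 10 µg/kg all 5 livers (45.4 to 50.3 CPM) were above every vehicle liver, yet the estimate of 0.37 was not called (adjusted p = 0.162).

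*Acvrl1* (ENSMUSG00000000530, chr15:101128522-101145336) encodes ALK1, the type I receptor to which BMP9 and BMP10 bind. It was called at 3, 10 and 30 µg/kg, although it was among the least abundant of the 10 genes, with 12 to 173 reads per liver. The vehicle livers held 2.41, 1.34, 2.34, 1.73 and 1.52 CPM and the 30 µg/kg livers 3.65, 5.04, 4.49, 2.56 and 4.57 CPM, and the groups did not overlap. The log2 fold change was 0.75 at 3 µg/kg (SE 0.24, adjusted p = 0.0484), 0.91 at 10 µg/kg (SE 0.24, adjusted p = 0.00727) and 1.12 at 30 µg/kg (SE 0.24, adjusted p = 4.00e-04). The call at 3 µg/kg was lost without vehicle replicates 2, 4 or 5 or treated replicates 1, 2 or 5, each left out in turn (adjusted p of up to 0.134).

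Both caveolins rose at 10 and 30 µg/kg. *Cav1* (ENSMUSG00000007655, chr6:17306335-17341452) encodes caveolin-1, the protein that forms the caveolar coat. It was read at 2.97, 1.91, 3.02, 2.41 and 2.63 CPM in the vehicle livers and 5.41, 6.30, 6.40, 4.85 and 4.25 CPM at 30 µg/kg, with every treated liver above every vehicle liver. The log2 fold change was 1.08 at 30 µg/kg (SE 0.24, adjusted p = 6.58e-04) and 0.85 at 10 µg/kg (SE 0.24, adjusted p = 0.0122). The 10 µg/kg livers (2.98 to 6.32 CPM) overlapped the vehicle range through replicate 3, and without replicate 5 the call at that dose was lost (0.71, adjusted p = 0.0551).

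*Cav2* (ENSMUSG00000000058, chr6:17281185-17289115) encodes caveolin-2, which forms oligomers with caveolin-1. It lies next to *Cav1* on the same strand. Vehicle livers held 6.23, 4.90, 5.36, 4.64 and 4.60 CPM, 3 µg/kg livers 9.94, 6.21, 10.1, 8.31 and 9.10 CPM and 30 µg/kg livers 10.6, 11.0, 11.8, 7.13 and 7.77 CPM. At 3 µg/kg only replicate 2 lay within the vehicle range, and at 10 (7.23 to 10.2 CPM) and 30 µg/kg no liver did. *Cav2* was called at 3 µg/kg (0.76, SE 0.18, adjusted p = 0.00537), 10 µg/kg (0.72, SE 0.18, adjusted p = 0.00424) and 30 µg/kg (0.92, SE 0.18, adjusted p = 1.19e-04), and it kept all 3 calls whichever liver was left out.

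**Figure D2:**
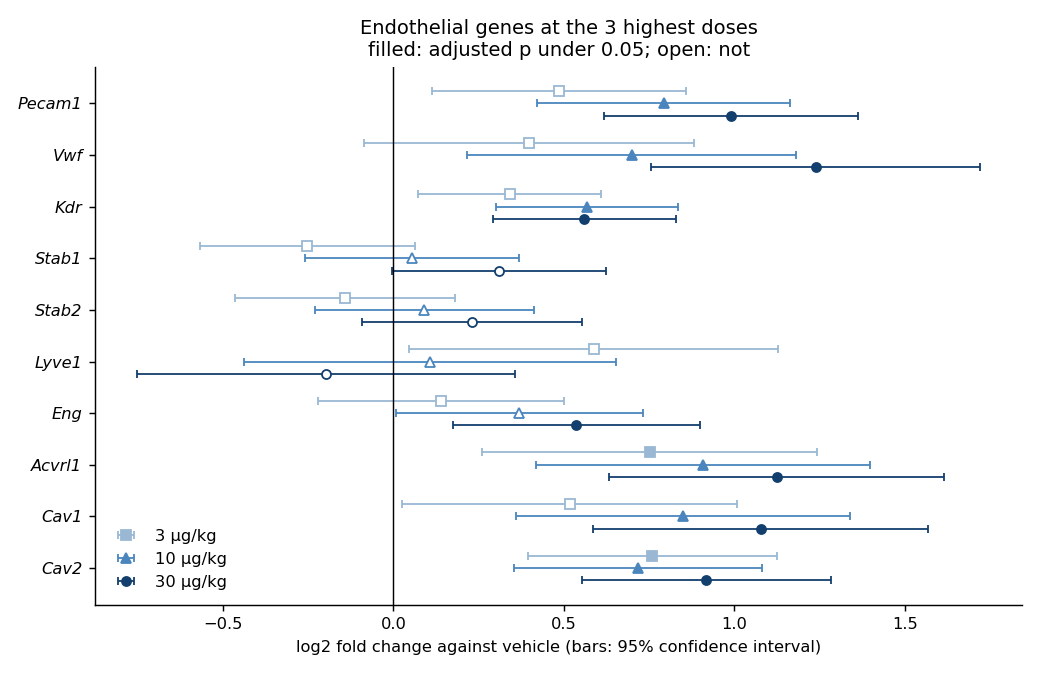
The horizontal axis is the log2 fold change against vehicle and the vertical axis lists the 10 genes, with squares for 3, triangles for 10 and circles for 30 µg/kg and bars for the 95% confidence interval. Filled symbols are called, and the 3 circles that are open belong to *Stab1*, *Stab2* and *Lyve1*.

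Across the doses, calls among the 10 genes began at 3 µg/kg. At 3 µg/kg *Acvrl1* and *Cav2* rose, 2 of the 10, where 7.54% of all genes were called and 4.34% were called higher. At 10 µg/kg 6 of the 10 rose (*Pecam1*, *Vwf*, *Kdr*, *Acvrl1*, *Cav1* and *Cav2*), beside 15.9% of all genes called and 8.47% called higher. With a fold change of at least 2 as well, *Vwf*, *Acvrl1* and *Cav1* remained at 30 µg/kg, 3 of the 10 beside 11.4% of all genes in either direction.

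No gene of the 10 was called at the 5 lowest doses by edgeR's quasi-likelihood test or by DESeq2. The share of all genes called was 0% at 0.01, 0.0573% at 0.03, 0.0229% at 0.1, 0.464% at 0.3 and 1.76% at 1 µg/kg. At an unadjusted p under 0.05, 1 of the 10 genes passed at 0.01 µg/kg (*Vwf*, lower), 1 at 0.3 µg/kg (*Stab1*, lower) and 0 at 0.03, 0.1 and 1 µg/kg. The shares above are of adjusted calls. How many of all genes passed the unadjusted threshold was not counted, so nothing is read from these 2 genes.

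By the values of single livers, 6 of the 10 genes at 30 µg/kg had every treated liver above every vehicle liver (*Pecam1*, *Vwf*, *Kdr*, *Acvrl1*, *Cav1* and *Cav2*), beside 10.3% of all genes tested. At 10 µg/kg it was also 6 of the 10 (*Pecam1*, *Vwf*, *Kdr*, *Eng*, *Acvrl1* and *Cav2*), beside 8.1% of all genes.

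Tested for a difference at any dose, 8 of the 10 genes passed (edgeR, adjusted p under 0.05), beside 28.8% of all genes. These were the 7 called at 30 µg/kg and *Stab1* (adjusted p = 0.0126), whose estimates ran from -0.32 at 0.3 µg/kg to 0.31 at 30 µg/kg. Over the rank of the dose, 7 of the 10 rose, beside 21% of all genes called with a rising trend. The slopes of the 7 lay between 0.083 (*Eng*, adjusted p = 6.73e-05) and 0.17 (*Vwf*, adjusted p = 3.41e-08) log2 units per dose step. Without the 2 livers that stood apart, 8 of the 10 had a rising trend, and the share of all genes in that fit is not given here.

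Between neighbouring doses none of the 10 genes was called by edgeR. Of all genes, 0.178% were called from 1 to 3, 0.784% from 3 to 10 and 0.613% from 10 to 30 µg/kg. An unadjusted p under 0.05 was counted for the 10 genes only, so these shares cannot be set beside it. From 1 to 3 µg/kg 4 of the 10 had such a p (*Kdr*, *Vwf*, *Cav1* and *Cav2*, all higher). From 3 to 10 µg/kg 0 of the 10 did, and from 10 to 30 µg/kg 1 did (*Vwf*, higher).

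**Figure D3:**
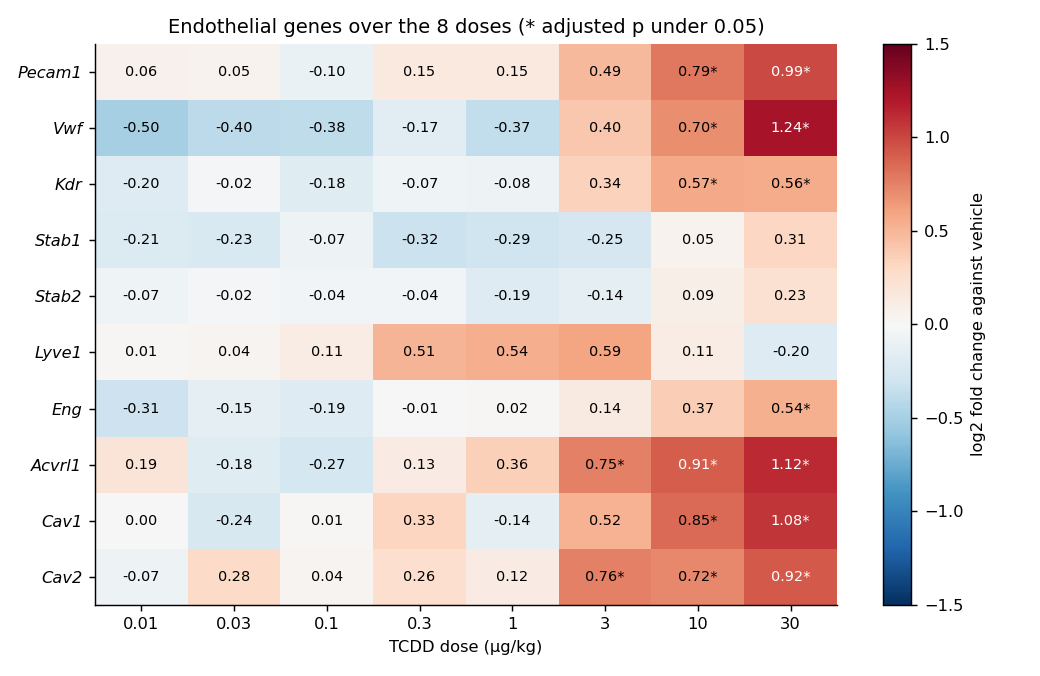
Rows are the 10 genes and columns the 8 TCDD doses (µg/kg), and each cell is coloured by and prints the log2 fold change against vehicle, with an asterisk where the gene was called. Asterisks appear in the columns for 3, 10 and 30 µg/kg, and the row of *Lyve1* is highest in the columns for 0.3, 1 and 3 µg/kg.

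Levels were compared between genes after division by exon length (CPM per kilobase), given as the median and range of 5 livers. In the vehicle group *Eng* was the most abundant, at 8.65 (7.62 to 11.2) CPM per kilobase, followed by *Kdr* at 4.50 (4.36 to 5.60), *Stab2* at 4.36 (3.95 to 5.08) and *Stab1* at 3.45 (3.00 to 4.02). *Lyve1* (2.64 (1.87 to 3.00)), *Pecam1* (1.62 (1.32 to 2.07)) and *Cav2* (1.47 (1.38 to 1.87)) were intermediate. *Cav1* (0.763 (0.554 to 0.877)), *Acvrl1* (0.406 (0.313 to 0.564)) and *Vwf* (0.265 (0.245 to 0.351)) were the lowest. In this order the livers of *Eng* and *Kdr*, of *Stab1* and *Lyve1* and of *Cav2* and *Cav1* did not overlap, while the other 6 neighbouring pairs did. At 30 µg/kg the order of the medians was *Eng*, *Kdr*, *Stab2*, *Stab1*, *Pecam1*, *Cav2*, *Lyve1*, *Cav1*, *Acvrl1* and *Vwf*. *Lyve1* then stood below *Pecam1* and *Cav2*, with overlapping ranges, and of the 9 neighbouring pairs only *Cav1* and *Acvrl1* did not overlap. Exons of *Stab1*, *Stab2*, *Eng* and *Acvrl1* overlap those of an opposite-strand gene (*Nt5dc2*, *Gm16268*, *Fpgs* and *Gm16031*) over 1.09% to 2.98% of their length, and without a stated strand setting such reads cannot be told apart.

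Ratios between members were compared within each library, which does not depend on scaling, for 5 pairs at 8 doses. None of these 40 exact two-sided permutation tests passed after Benjamini-Hochberg adjustment, while 8 had an unadjusted p under 0.05. The smallest p that 5 livers against 5 allow is 0.00794, so a single ratio at this floor could not pass over 40 tests. The lack of a pass therefore does not show that the ratios were unchanged. The mean ratio of *Eng* to *Acvrl1* differed from that of the vehicle group by -0.60 on the log2 scale at 30 µg/kg (exact p = 0.0159, adjusted p = 0.136). That of *Kdr* to *Pecam1* differed by -0.43 (exact p = 0.0159, adjusted p = 0.136). The ratio of *Lyve1* to *Stab2* differed by 0.71 at 1 µg/kg (exact p = 0.00794, adjusted p = 0.136) and by -0.49 at 30 µg/kg (exact p = 0.111). For the caveolins the difference at 30 µg/kg was 0.18 (exact p = 0.206) and for the stabilins 0.086 (exact p = 0.556).

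Livers of the same dose also differed from each other in a shared way. The deviations of log2 CPM from the group means were correlated over the 45 livers in all 5 pairs, with permutation within groups (100000 resamples) and adjustment over the 5 pairs. Pearson's r was 0.729 for *Kdr* and *Pecam1* and 0.716 for *Stab1* and *Stab2*, each with a permutation p of 1e-05, the smallest that these resamples can give (adjusted p = 2.5e-05). Spearman's rho was 0.726 (adjusted permutation p = 5e-05) and 0.705 (adjusted permutation p = 5e-05). For *Eng* and *Acvrl1* r was 0.613 (permutation p = 5.20e-04, adjusted p = 7.13e-04) and rho 0.624 (permutation p = 1.90e-04). For *Cav1* and *Cav2* r was 0.547 (permutation p = 5.70e-04, adjusted p = 7.13e-04) and rho 0.640 (permutation p = 5e-05). *Lyve1* and *Stab2* had the lowest values, r of 0.478 (permutation p = 0.00689) and rho of 0.469 (permutation p = 0.00598). Without the 2 livers farthest from the median of the first gene, r lay between 0.476 and 0.724. Both genes of a pair come from 1 library and share its depth and scaling, and no sequencing batch is given by the labels, so the part of either in these correlations was not tested.

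Other genes of the vessel wall also changed. Values given in parentheses after a gene are log2 fold changes at 30 µg/kg unless said otherwise. For the counts of the lists that follow, 15.5% of all genes tested were called higher at this dose and 29.6% in either direction. Of 24 further general endothelial genes, 18 rose at 30 µg/kg, 0 fell and 6 were not called, with a median log2 fold change of 0.65. The 4 with the largest changes were *Sox17*, a transcription factor of arterial endothelium (1.69, 2.95 ± 0.610 CPM in the vehicle group and 9.48 ± 1.41 CPM at 30 µg/kg), *Cd34*, a sialomucin of vascular and progenitor cells (1.22), the adhesion molecule *Icam2* (1.08) and the receptor *Tie1* (1.05). *Cdh5*, the VE-cadherin of endothelial junctions, was also called (1.01, adjusted p = 0.00133). *Flt1*, the VEGF receptor-1, had a value of -0.13 and was not called (adjusted p = 0.533).

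Of 14 further genes typical of sinusoidal endothelium, 10 rose at 30 µg/kg and 1 fell, with a median of 0.67. *Cd36*, a fatty acid and scavenger receptor that hepatocytes can also express, was at 159 ± 45.1 CPM in the vehicle group and 492 ± 52.8 CPM at 30 µg/kg (1.63, adjusted p = 1.77e-09). *Flt4*, the VEGF receptor-3, was at 14.2 ± 0.780 CPM in the vehicle group and 30.8 ± 7.96 CPM at 30 µg/kg (1.12, adjusted p = 9.65e-06), and *Plxnc1*, a semaphorin receptor, also rose (0.84). *Ctsl*, a lysosomal protease present in many cell types, fell from 696 to 324 CPM (-1.10, adjusted p = 3.23e-11). With the general endothelial genes these make 38 genes outside the 10, of which 28 rose and 1 fell at 30 µg/kg, 18 rose and 1 fell at 10, and 7 rose and 1 fell at 3 µg/kg, with a median of 0.66 at 30 µg/kg.

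Of 13 genes of central vein endothelium and of the signals that endothelial cells send to hepatocytes, 11 rose at 30 µg/kg and 0 fell, with a median of 0.77. They included *Angpt2*, an antagonist ligand of Tie2 (1.47), *Dkk3*, a secreted protein of the Dickkopf family (1.47), *Thbd*, the thrombin receptor thrombomodulin (1.36), and *Wnt2*, a Wnt ligand of pericentral endothelium (1.36). *Wnt2* was at 1.99 ± 0.742 CPM in the vehicle group and 5.11 ± 1.08 CPM at 30 µg/kg. The values of *Angpt2* (SE 0.38) and *Dkk3* (SE 0.24) rest on few reads, 4 to 12 and 13 to 15 per vehicle liver. *Bmp2* was not called at 30 µg/kg (0.23, adjusted p = 0.358) but was called at 10 µg/kg (0.52, adjusted p = 0.0358).

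In the pathways in which the 10 genes act, genes changed in both directions. Of 26 tested genes of the BMP and ALK1 pathway 6 rose and 6 fell at 30 µg/kg, with a median of 0.078. Of all genes tested, 29.6% were called at this dose in either direction and 15.5% were called higher. The difference of the list from these shares was not tested. *Gdf2*, which encodes the ligand BMP9, was at 17.2 ± 2.59 CPM in the vehicle group and 28.9 ± 6.53 CPM at 30 µg/kg (0.75, adjusted p = 1.48e-04). *Id3*, a transcriptional target of BMP signalling, rose (1.02), while the related targets *Id1* (0.23) and *Id2* (0.038) and the inhibitors *Smad6* (0.10) and *Smad7* (0.42) were not called. *Tgfbr2*, the type II receptor for TGF-beta, rose (0.74). *Hamp*, which encodes the iron hormone hepcidin, a BMP target in hepatocytes, was at 739 ± 120.1 CPM in the vehicle group and 299.7 ± 101 CPM at 30 µg/kg (-1.30, adjusted p = 6.43e-04).

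Of 12 tested genes of the VEGF and angiopoietin pathway 5 rose and 4 fell, with a median of -0.18. Among the receptors *Flt4* (1.12), *Tie1* (1.05) and *Tek* (0.66) rose, as did the ligands *Angpt2* (1.47, few reads) and *Vegfc* (0.58). *Vegfa*, the ligand of the *Kdr* product, fell (-0.41, adjusted p = 0.00704), as did the co-receptors *Nrp1* (-0.47) and *Nrp2* (-0.77). *Vegfb*, a ligand of VEGF receptor-1, was at 6.20 ± 1.12 CPM in the vehicle group and 1.76 ± 0.373 CPM at 30 µg/kg (-1.81, adjusted p = 6.54e-10). The list shares *Flt1*, *Flt4*, *Tek*, *Tie1* and *Angpt2* with the lists above.

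Of 5 tested genes of the caveolar coat besides *Cav1* and *Cav2*, 3 rose at 30 µg/kg. These were the coat proteins *Cavin1* (0.71, adjusted p = 9.08e-04) and *Cavin2* (0.50) and the ATPase *Ehd2*, which sits at the neck of caveolae (0.61). *Cavin3* (0.37) and *Pacsin2* (-0.14) were not called.

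Of 6 tested genes that make, bind or degrade hyaluronan, 3 rose and 1 fell. The hyaluronan receptors *Hmmr* (3.15, also a mitotic spindle protein) and *Cd44* (1.08) and the hyaluronidase *Tmem2* (0.74) rose, and the lysosomal hyaluronidase *Hyal1* fell (-0.43). *Hmmr* had only 0 to 5 reads in the vehicle livers (0 to 0.309 CPM, against 0.39 to 2.92 CPM at 30 µg/kg), and its log2 fold change had an SE of 0.86. None of the 5 partners of von Willebrand factor (*Selp*, *Adamts13*, *F8*, *Gp1ba* and *Itgb3*) was called at 30 µg/kg, with values from -0.35 (*Selp*) to 1.16 (*Gp1ba*, with 0 to 2 reads in the vehicle livers). *Adamts13*, the protease that cleaves von Willebrand factor, was called at 1 µg/kg (0.59, adjusted p = 0.0433) and at 10 µg/kg (0.54, adjusted p = 0.0158). The lists of related genes and of cell type markers were compiled with earlier results of these data known and are described by their counts and medians.

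**Figure D4:**
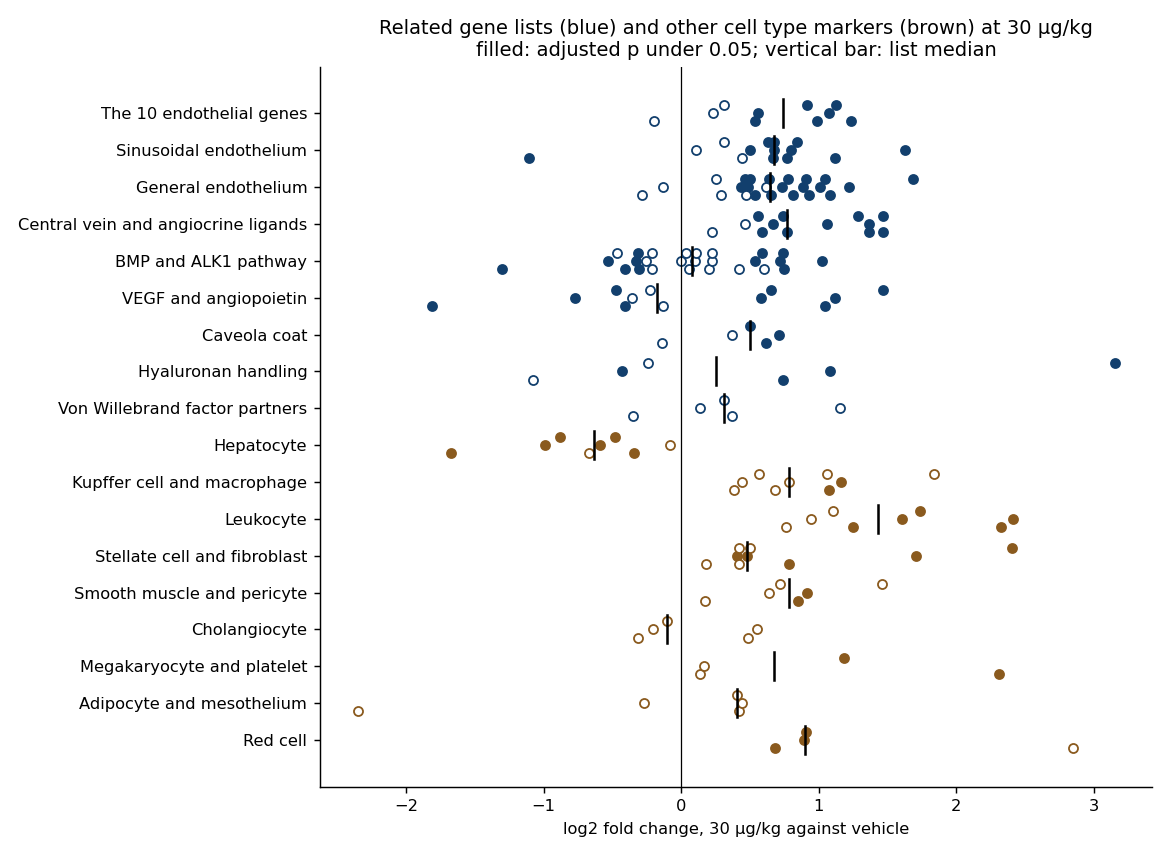
The horizontal axis is the log2 fold change at 30 µg/kg against vehicle, with 1 point per gene, filled where called, and a vertical bar for the median of each list. The points of the 3 further endothelial lists sit mostly right of 0, around medians of 0.67, 0.65 and 0.77, while those of the BMP and VEGF lists fall on both sides.

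Some markers of other cell types also changed, and their values are given at 30 µg/kg. At this dose 15.5% of all genes tested were called higher and 29.6% in either direction. Whole liver holds all of its cell types, and a lower or higher share of cells of a type cannot be told apart from less or more RNA per cell. Summed over the 10 endothelial genes, the level was 171 to 212 CPM in the vehicle livers and 192 to 307 CPM at 30 µg/kg, the ranges overlapping through treated replicate 4 (192 CPM). The median sums were 184 CPM and 285 CPM.

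Leukocyte markers rose in 5 of 8 genes at 30 µg/kg (*Itgax* 2.42, *S100a8* 2.33, *Ms4a1* 1.74, *Cd8a* 1.61 and *Ptprc* 1.25), and their sum was 7.82 to 15.6 CPM in the vehicle livers and 16.9 to 36 CPM at 30 µg/kg. Kupffer cell and macrophage markers rose in 2 of 9 genes (*Cd68* 1.08 and *Csf1r* 1.16), beside 15.5% of all genes called higher. Their sums were 176 to 282 CPM and 155 to 464 CPM. Without the 2 livers that stood apart, 4 of the 9 were called, beside 5309 of 17335 genes in either direction. Treated replicate 4 had the lowest sum of the 10 endothelial genes in its group. It was also lowest for the leukocyte and macrophage sums, at 16.9 and 155 CPM. The stellate cell (505 CPM), smooth muscle (52.8 CPM), cholangiocyte (53 CPM) and red cell (73.4 CPM) sums were lowest in this liver as well. Its hepatocyte, megakaryocyte and adipocyte sums were not the lowest.

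Stellate cell and fibroblast markers rose in 5 of 9 genes, with *Col1a1* (2.41), *Reln* (1.71), *Pdgfra* (0.78) and *Dcn* (0.48) the largest and *Colec11* (0.41) the smallest, and sums of 269 to 359 CPM against 505 to 644 CPM. Smooth muscle and pericyte markers rose in 2 of 6 genes (*Tagln* 0.85 and *Notch3* 0.91), at 38.9 to 55.7 CPM and 52.8 to 67.1 CPM. Of the 4 tested megakaryocyte and platelet markers 2 rose (*Ppbp* 2.31 and *Pf4* 1.19), at 1.92 to 3.50 CPM and 3.49 to 4.99 CPM in all. Red cell markers rose in 3 of 4 genes (*Hbb-bs* 0.91, *Hba-a1* 0.90 and *Alas2* 0.68), at 57.2 to 71.3 CPM and 73.4 to 150.3 CPM.

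Hepatocyte markers fell in 6 of 8 genes, with *Apoa1* (-1.67), *Cps1* (-0.99), *Fgb* (-0.88) and *Serpina1c* (-0.59) the largest. *Alb*, the most abundant of them, was not called (-0.079, adjusted p = 0.650), and the sum was 125800 to 160800 CPM in the vehicle livers and 111800 to 162300 CPM at 30 µg/kg. None of 5 cholangiocyte markers (52.1 to 77.5 and 53 to 70.2 CPM) and none of 5 tested adipocyte and mesothelial markers (4.18 to 19.4 and 6.54 to 16.8 CPM) was called, and *Plin1* of the latter list had no read in the vehicle and 30 µg/kg livers. At 3 and 10 µg/kg, leukocyte markers were called higher in 2 and 4 of 8 genes and stellate cell markers in 1 and 3 of 9, and hepatocyte markers were called lower in 2 and 3 of 8. Of all genes tested, 4.34% and 8.47% were called higher at 3 and 10 µg/kg, and 7.54% and 15.9% in either direction. Megakaryocyte markers were called in 1 of 4 at 3 µg/kg and 0 at 10, and red cell markers in 0 at 3 and 1 of 4 at 10 µg/kg. No Kupffer cell, smooth muscle, cholangiocyte or adipocyte marker was called at these 2 doses. Several of the leukocyte and megakaryocyte fold changes rest on few reads, with at most 9 per vehicle liver for *Itgax*, *S100a8*, *Ms4a1*, *Cd8a*, *Ppbp* and *Pf4*. Some of the sums rest mainly on 1 gene. Among these, the vehicle means were 9.27 CPM for *Ptprc* (leukocytes), 58.1 CPM for *Spp1* (cholangiocytes), 38.4 CPM for *Rgs5* (smooth muscle) and 111500 CPM for *Alb* (hepatocytes). They were 186 CPM for *Dcn* (stellate cells), 7.59 CPM for *Plin4* (adipocytes and mesothelium) and 2.45 CPM for *Itga2b* (megakaryocytes). At 30 µg/kg *Itga2b* was not called (0.14, adjusted p = 0.6445). The part of these cell types in the levels of the 10 endothelial genes was not tested.

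**Figure D5:**
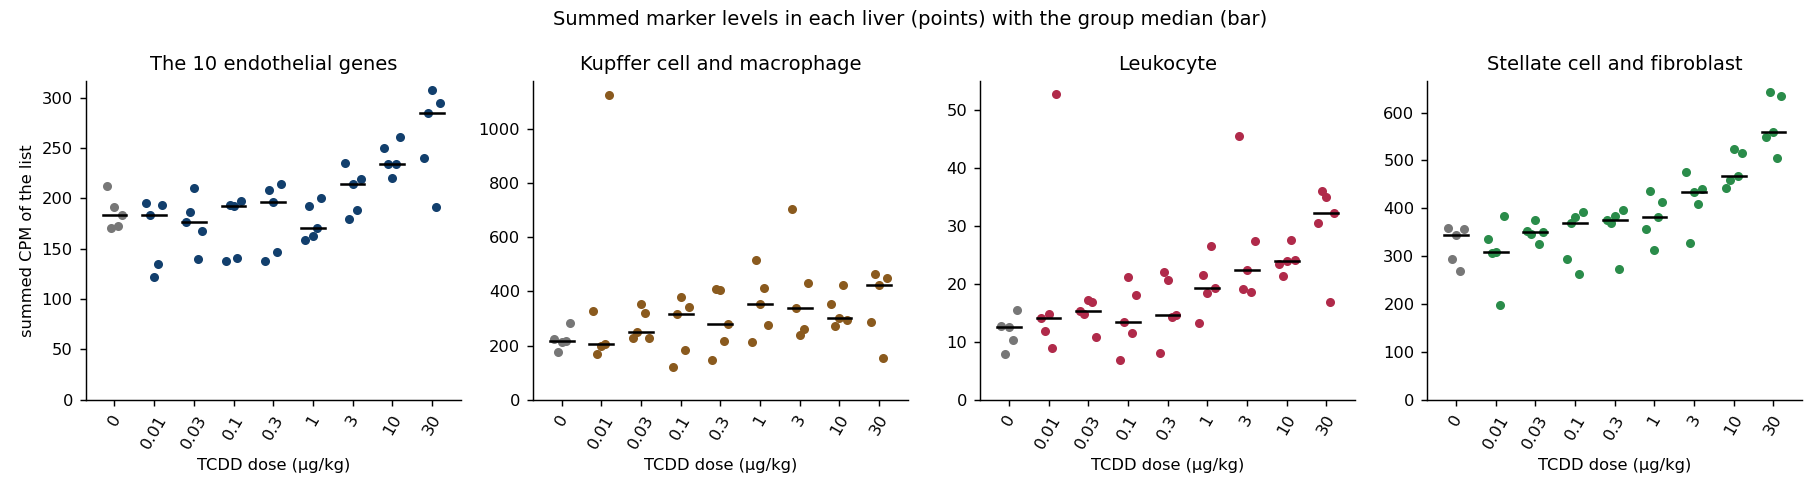
Summed CPM of 4 marker lists (vertical axes, linear from 0) by TCDD dose (µg/kg), with 1 point per liver and a bar for the median of 5. The sum of the 10 endothelial genes reaches 192 to 307 CPM at 30 µg/kg, and the single high point at 0.01 µg/kg in the macrophage and leukocyte panels is replicate 5.

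For each of the 7 genes called at 30 µg/kg the genes with the most similar course were sought among 13609 genes with a mean of at least 10 reads, by the root mean square difference of the log2 fold changes over the 8 doses. The closest gene to *Kdr* was *Tek*, the angiopoietin receptor Tie2 (0.055), followed by *Arhgap31* and *Dnase1l3* (both 0.070). *Eng* was closest to *Oit3*, a gene of sinusoidal endothelium (0.065), and to *Chst15* and *Pgk1*. *Pecam1* was closest to *Map3k15* (0.068), *Bsg*, which encodes basigin (0.086), and *BC028528* (0.089). *Vwf* was closest to *Wnt9b*, a Wnt ligand of pericentral endothelium (0.11), *Slc22a3*, an organic cation transporter, and *Fam110c* (both 0.14). *Acvrl1* was closest to *Olfml3* (0.10), *Mcam*, an adhesion molecule of endothelial and mural cells, and *Pcdh17*, a protocadherin (both 0.12). *Cav1* was closest to *Megf6* and *Sema3f*, a secreted semaphorin (both 0.12), and then to *Tie1* (0.13). *Cav2* was closest to *Ednrb*, the endothelin receptor B (0.070), *Srgn*, the proteoglycan serglycin (0.087), and *Cyyr1* (0.10). Of the 21 genes, 4 (*Tek*, *Dnase1l3*, *Oit3* and *Tie1*) belong to the sinusoidal or general endothelial lists. These 2 lists hold 38 tested genes, and 13609 genes were compared. All of these courses are measured against the same 5 vehicle livers.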

How the data were processed

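The deposited values were raw read counts per Ensembl gene, 1 table per liver, which the authors made by trimming the reads, aligning them to GRCm38 with Bowtie and TopHat 1.4.1 and counting them with HTSeq 0.6.1 in its intersection-nonempty mode. The submitters' processing notes also name FastQC 0.11.2, SAMtools 0.1.19 and DESeq. The strand setting of the counting is not given in the sources used here. Reads outside genes (9.11% to 17.1% per liver) and ambiguous reads (1.34% to 2.07%) were left out. Reads on genes ranged from 11767284 to 56509899 per liver. Libraries were sequenced in pools of randomly chosen samples, which the labels do not give. Replicates were numbered in accession order, and no library was a copy of another in its group.

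Counts were analysed with edgeR 4.0.16 in R 4.3.3 (TMM factors, quasi-likelihood test, 1 coefficient per dose group, 45 livers in 1 fit, genes with more than 4 reads in any liver, Benjamini-Hochberg adjustment within each dose). Further contrasts tested any dose, the trend over dose rank and neighbouring doses. Ratios and correlations were tested by permutation with scipy 1.17.1, pandas 2.3.3 and numpy 2.4.6 under Python 3.11.15, and matplotlib 3.10.9 drew the figures. CPM values are edgeR's, and ratios used a prior count of 0.5. The study's own normalization was not repeated. The fit was tested on simulated data. The alternatives were DESeq2 1.42.0, its size factors, library size alone, other filters, other sets of livers, adjustment over all doses together and each liver left out in turn.

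The 10 genes and all lists were chosen with earlier results of these data known. The text gives the 10 genes at every dose, the genes called at 30 µg/kg with the 4 largest changes in each list, list members that were not called, the 3 genes most similar in course, and *Cyp1a1*. *Cdh5*, *Tek*, *Vegfa*, *Vegfc*, *Nrp1*, *Nrp2*, *Ptprc*, *Colec11*, *Marco* and *Xist* fall outside these and were chosen after their values were seen. Gene positions and exon lengths come from GENCODE M21 (GRCm38), which is later than the release counted on, and promoter sequences from RefSeq.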

Additional observations from a re-analysis of the deposited data

Results flagged for a closer look

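Within the groups of 5 livers, 8 of 90 combinations of gene and dose group held a liver whose gap to its nearest neighbour was large for the range of the group, beyond Dixon's 95% critical value of 0.71. Chance gives about 1 in 20, or 4.5 of 90. *Pecam1* at 30 µg/kg was 14.5 CPM in replicate 4 against 22.6 to 22.9 CPM in the other livers. That liver also held the lowest summed endothelial, leukocyte, macrophage, stellate cell, smooth muscle, cholangiocyte and red cell levels of its group. Replicate 5 at 1 µg/kg stood above its group for both caveolins, with 3.53 CPM of *Cav1* against at most 2.21 CPM and 7.34 CPM of *Cav2* against at most 5.29 CPM. *Lyve1* was 11.1 CPM in replicate 5 at 0.01 µg/kg against at most 6.90 CPM, in the library that also stood apart by *Marco* and *Cyp1a1*. Single high livers were further seen for *Vwf* in vehicle replicate 4 (5.63 CPM against at most 4.39 CPM) and for *Cav1* in replicate 1 at 0.1 µg/kg (4.53 CPM against at most 2.58 CPM). For *Acvrl1* replicate 3 at 0.03 µg/kg (2.36 CPM against at most 1.62 CPM) and replicate 2 at 10 µg/kg (4.11 CPM against at most 3.44 CPM) were high. The cause was not tested for any of them.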

How the results depend on the processing

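The count of 7 endothelial genes called at 30 µg/kg was 6 with adjustment over all doses together and 9 with library size alone. It was 7 under the 6 other settings, DESeq2 among them, and lay between 6 and 8 with a liver left out. Of all 17464 genes tested, 5167 were called at 30 µg/kg in the main fit. With adjustment over all doses together 3618 were called, and with library size alone 6218. Such counts over all genes are given for 30 µg/kg only. The 6 at 10 µg/kg lay between 5 and 7 over the settings and between 4 and 6 with a liver left out. The 2 at 3 µg/kg were 1 with adjustment over all doses together, 1 with genes of at least 1 read, 4 with only the 2 groups compared and 1 to 2 with a liver left out (vehicle replicates 2, 4 or 5 or 3 µg/kg replicates 1, 2 or 5), and the cause was not tested. No result changed its direction past the threshold. Among single genes, 22 calls were lost and 7 gained over all settings and doses, mostly *Vwf* at 10 µg/kg (9 lost), *Acvrl1* at 3 µg/kg (8 lost) and *Eng* at 30 µg/kg (4 lost). At 3 µg/kg *Kdr* was gained under 2 settings and *Pecam1* under 1, neither with a liver left out.

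The number of markers called at 30 µg/kg changed in these cases. The count of all genes called changed as well, as given above for joint adjustment and library size alone. It was 4710 of 24429 with genes of at least 1 read and 5497 of 16282 with only the 2 groups compared. With library size alone it was 2 for partners of von Willebrand factor, 4 for Kupffer cells, 8 for stellate cells and 4 for smooth muscle. With adjustment over all doses together it was 0 for Kupffer cells, 3 for leukocytes, 1 for megakaryocytes and 1 for red cells. Megakaryocyte markers were also 1 with genes of at least 1 read and 1 with only the 2 groups compared, where Kupffer cell markers were 5. Without replicates 2 and 5 at 0.01 µg/kg, an alternative chosen after seeing the data, Kupffer cell markers were 4. No paired analysis was run, since the study's methods assign mice to groups at random and name no pairing. The labels carry no replicate numbers, and the numbers used here follow accession order. The lowest counts in a liver were 11 reads for *Cav1* and 12 for *Acvrl1*.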
